A study of Mus musculus with 3 samples.

Results

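The constitutive proteasome genes encode the subunits of the large protease that degrades ubiquitin-tagged proteins, together with its standing activators, inhibitor and assembly chaperones. They were chosen by gene symbol, with earlier results of these data known. The rule took every gene named Psma, Psmb, Psmc or Psmd with a number, and Psme3, Psme4, Psmf1, Psmg1 and Psmg2. It left out the interferon-inducible Psmb8, Psmb9 and Psmb10. The measurement held 37 such genes, each through a single probe and with a value on all 3 arrays, among 10184 named genes with a value on all 3. They comprised 13 subunits of the core particle, 17 of the regulatory particle and 7 accessory proteins. Psma5, Psmb3, Psmb11 and Psme3 were not analysed here. The annotation names Psmg1 and Psmg2 by older symbols.

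Female C57BL/6 mice, wild-type or lacking TMX (a thioredoxin-related protein of the endoplasmic reticulum membrane), were left untreated or given 3 ng lipopolysaccharide (LPS) and 10 mg D-galactosamine (GalN) into the peritoneum, a model of acute inflammatory liver injury, and liver RNA was hybridised to microarrays with 2 channels. The groups were TMX-null liver 24 h after LPS/GalN, wild-type liver 24 h after LPS/GalN and untreated TMX-null liver, with 1 array each, and the other channel of every array held untreated wild-type liver. The labels do not say whether a channel held 1 mouse or a pool, or whether the reference was the same RNA on every array. Every value below is a log2 ratio centred on the median of the 10184 genes of its array, so 0 means the middle gene of that array and 1 means 2-fold above it.

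With 1 array per group and no exchange of dyes no test was possible, no p-value is given, and "higher" and "lower" describe these arrays only. The only error at hand is the scatter between probes of the same gene: 81 genes carried 2 probes each, and from them a single probe had an SD of 0.76 in treated TMX-null, 0.42 in treated wild-type and 0.42 in untreated TMX-null liver, 0.67 for treated over untreated TMX-null liver and 0.59 for treated TMX-null over treated wild-type liver. It leaves out differences between mice. Tmx1, the gene of the missing protein, stood at -3.88 in treated TMX-null, 0.59 in treated wild-type and -2.96 in untreated TMX-null liver. The labels do not state which channel is the numerator; the low Tmx1 ratios in both TMX-null livers make sample over reference the likely direction, and otherwise every sign turns. Whether its probe lies in the deleted stretch was not analysed here. The table holds ratios and no levels, so a gene near background cannot be told from a bright one, and the identity of the tissue cannot be read from it. Of 10 hepatocyte markers, 8 had a value on all arrays.

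The proteasome is a capped barrel. In the core particle, outer rings of alpha subunits gate the entry to inner rings of beta subunits, of which Psmb5, Psmb6 and Psmb7 carry the proteolytic sites (chymotrypsin-like, caspase-like and trypsin-like). The regulatory particle caps the barrel: its base contains the ATPases Psmc1 to Psmc6, which unfold substrates, and scaffold and ubiquitin-receptor subunits, and its lid removes ubiquitin. In mammalian cells the transcription factor NRF1 (gene Nfe2l1) raises most subunit genes together when proteasome capacity is short, and in inflammation interferon replaces the constitutive catalytic subunits by inducible ones.

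Most proteasome genes lay modestly above the middle gene in both treated livers and around it in untreated TMX-null liver. Their median was 0.31 in treated TMX-null, 0.24 in treated wild-type and -0.0035 in untreated TMX-null liver, and 30, 29 and 18 of 37 lay above 0 on these arrays, where 50% of all genes lay above 0 by the centring. Single values ran from -1.52 (Psma8) to 1.26 (Psmd8) in treated TMX-null, from -0.31 (Psme4) to 0.73 (Psma7) in treated wild-type and from -0.71 (Psma8) to 0.52 (Psma7) in untreated TMX-null liver. In treated wild-type liver all 10 macrophage markers (median 1.19) and all 4 measured T and NK cell markers of 5 (median 1.15) also lay above 0, and 1 of 8 hepatocyte markers did (median -0.36); in untreated TMX-null liver these medians were 0.79, 0.92 and -0.50. Their part in the proteasome values was not tested. Most single values were smaller than the SD of a single probe on their array.

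Few of these genes reached 2-fold. At 2-fold, 1 of 37 was higher (Psmd8) and 1 lower (Psma8) in treated TMX-null liver, 2.7% each way, where 13.5% of all genes were higher and 13.3% lower. In treated wild-type liver 0 of 37 reached 2-fold in either direction, beside 2.81% of all genes higher and 1.76% lower. The count was likewise 0 each way in untreated TMX-null liver, beside 1.8% and 0.835%. At 1.5-fold, 10 of 37 (27.0%) were higher and 1 (2.7%) lower in treated TMX-null liver, against 25.4% and 25% of all genes, the higher share being near that of all genes and the lower share below it.

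**Figure D1:**
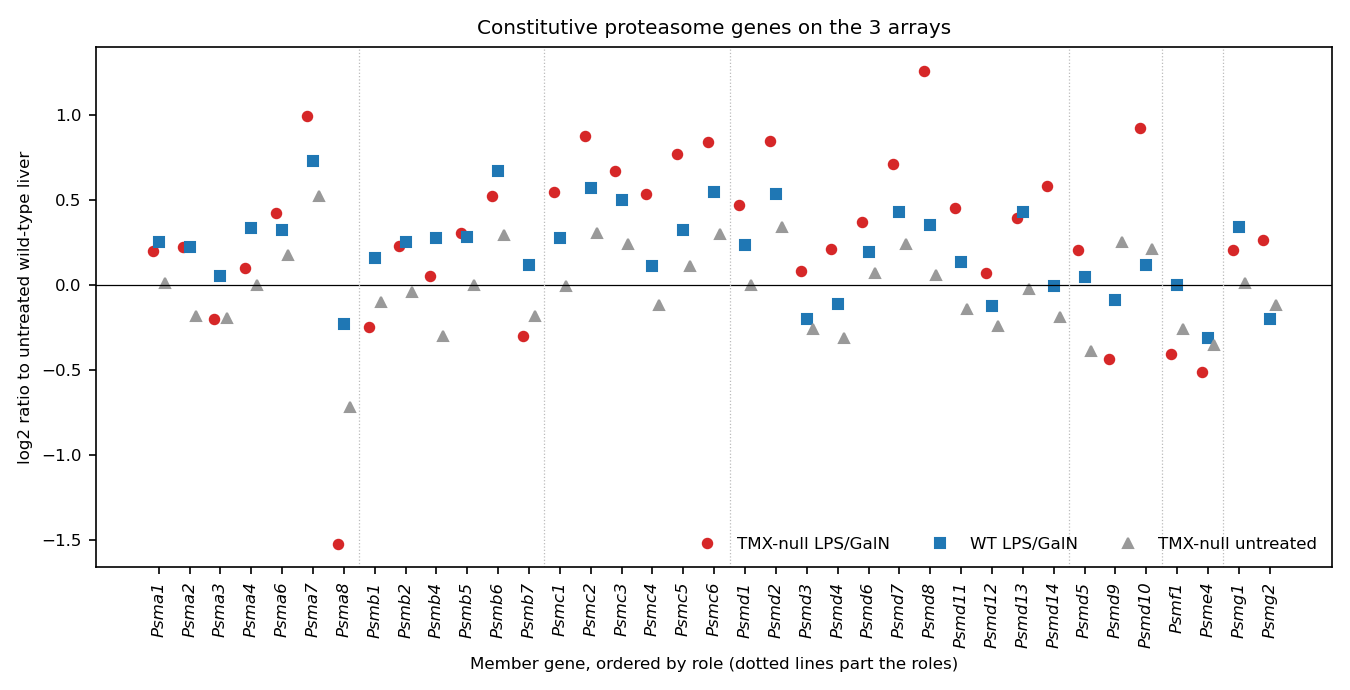
Log2 ratio to untreated wild-type liver (vertical axis) of each of the 37 proteasome genes (horizontal axis, by role) in treated TMX-null (circles), treated wild-type (squares) and untreated TMX-null liver (triangles). The 6 ATPase genes, Psmc1 to Psmc6, lie between 0.53 and 0.88 in treated TMX-null liver and above both other livers, while Psma8 lies lowest at -1.52.

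Among the catalytic subunits, Psmb5, the chymotrypsin-like site and the main target of proteasome inhibitors, stood at 0.31 in treated TMX-null, 0.28 in treated wild-type and 0.0027 in untreated TMX-null liver. Psmb6, the caspase-like site, stood at 0.52, 0.67 and 0.30 on the same arrays. Psmb7, the trypsin-like site, stood at -0.30, 0.12 and -0.18. All 3 catalytic genes were therefore higher in treated wild-type than in untreated TMX-null liver, and in treated TMX-null liver Psmb7 alone lay below 0. The non-catalytic beta subunits gave no common level in treated TMX-null liver, with Psmb1 at -0.24, Psmb2 at 0.23 and Psmb4 at 0.06, whereas in treated wild-type liver they stood close together at 0.16, 0.26 and 0.28, and in untreated TMX-null liver at -0.10, -0.04 and -0.30.

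The alpha ring held both the second highest and the lowest gene in treated TMX-null liver. Psma7 stood at 0.996 in treated TMX-null, 0.73 in treated wild-type and 0.52 in untreated TMX-null liver, above 0 on every array, and all 3 arrays share the untreated wild-type channel. Psma8, an alpha subunit known from testis, stood at -1.52, -0.23 and -0.71, below 0 on every array. Of the other alpha genes, Psma6 stood at 0.43, 0.32 and 0.18, Psma2 at 0.22, 0.23 and -0.18 and Psma1 at 0.20, 0.25 and 0.01. Psma4 stood at 0.10, 0.34 and 1.67e-05 and Psma3 at -0.20, 0.06 and -0.19. Psma1, Psma2, Psma3, Psma4 and Psma8 thus had their highest value in treated wild-type liver, Psma2 by a margin under 0.01.

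The ATPases of the base shared the order of the 3 livers. Psmc2 stood at 0.88 in treated TMX-null, 0.58 in treated wild-type and 0.31 in untreated TMX-null liver, Psmc6 at 0.84, 0.55 and 0.30, and Psmc5 at 0.77, 0.33 and 0.11. Psmc3 stood at 0.68, 0.50 and 0.24, Psmc1 at 0.55, 0.28 and -0.0035, and Psmc4 at 0.53, 0.12 and -0.11. Each of the 6 had its highest value in treated TMX-null and its lowest in untreated TMX-null liver, with treated wild-type liver between them. This order was not particular to the ATPases, as the other regulatory genes among the members had it except Psmd13. The core genes Psma6, Psma7 and Psmb5 and the accessory gene Psmd5 had it too. The share of all genes with this order was not counted. The ATPase medians were 0.72, 0.41 and 0.18 on the 3 arrays, with an SD over the 6 genes of 0.15, 0.18 and 0.17, where the SD over all genes was 1.04, 0.48 and 0.40.

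Psmd8, a lid subunit, was the highest gene of the whole group in treated TMX-null liver at 1.26. That is 2.40-fold above the middle gene of that array and rank 903 of 10184 genes. Psmd8 stood at 0.36 in treated wild-type and 0.06 in untreated TMX-null liver. Psmd14, the metalloprotease that cuts ubiquitin chains off substrates, stood at 0.59, -0.0026 and -0.18, high in treated TMX-null liver only. Its inactive partner Psmd7 stood at 0.72, 0.43 and 0.25. The other lid genes in treated TMX-null liver were Psmd11 (0.45), Psmd13 (0.39), Psmd6 (0.38), Psmd3 (0.09) and Psmd12 (0.08), against 0.14, 0.43, 0.19, -0.20 and -0.12 in treated wild-type liver. In untreated TMX-null liver they stood at -0.14, -0.02, 0.07, -0.26 and -0.24. Psmd13 was the only one of the 8 lid genes among the members that was not higher in treated TMX-null than in treated wild-type liver. Sem1, a small lid protein outside the member rule, stood at 0.29 in treated TMX-null against 0.54 in treated wild-type liver. The large scaffold subunits of the base, Psmd2 (0.85, 0.54 and 0.34) and Psmd1 (0.47, 0.24 and 0.0022), followed the order of the ATPases, and so did the ubiquitin receptor Psmd4 at 0.21, -0.11 and -0.31.

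The accessory genes had no common direction. Psmd10 (gankyrin), Psmd5 and Psmd9 help to assemble the base and leave the finished particle. Psmd10 stood at 0.93 in treated TMX-null, 0.12 in treated wild-type and 0.21 in untreated TMX-null liver, Psmd5 at 0.21, 0.05 and -0.38, and Psmd9 on the opposite side at -0.43, -0.08 and 0.26. The activator gene Psme4 (-0.51, -0.31 and -0.35) and the inhibitor gene Psmf1 (-0.41, 0.0047 and -0.25) each had their lowest value in treated TMX-null liver. Psmg1 and Psmg2, which form a pair that builds the alpha ring, stood at 0.21 and 0.27 in treated TMX-null, 0.35 and -0.20 in treated wild-type and 0.01 and -0.11 in untreated TMX-null liver.

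Core and regulatory particle were compared as groups. Their medians differed in treated TMX-null liver: 0.20 for the 13 core genes and 0.55 for the 17 regulatory genes, a difference of -0.34 (core minus regulatory). The particles overlapped there: 8 of 13 core genes lay above the lowest regulatory gene, and 1 of 17 regulatory genes above the highest core gene. At 1.5-fold, 1 core gene (Psma7) and 8 regulatory genes were higher there, 7.69% and 47.1%, against 25.4% of all genes. In treated wild-type liver the medians were 0.26 and 0.28, a difference of -0.02, and in untreated TMX-null liver -0.04 and 0.0022, a difference of -0.04. The particle medians thus lay apart in treated TMX-null liver and close together on the other arrays. Centring cancels in this difference.

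**Figure D2:**
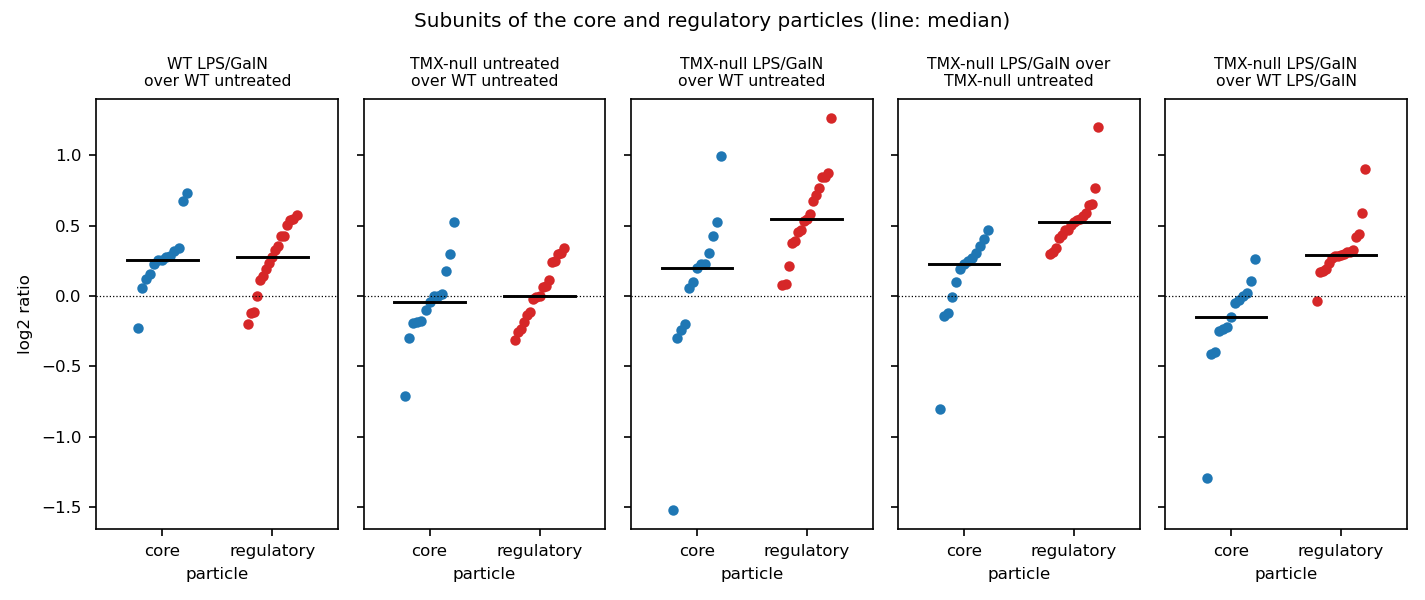
Log2 ratio (vertical axis) of the 13 core and 17 regulatory particle genes in 5 comparisons; each point is a gene and the line is the median of its particle. Core minus regulatory is -0.34, -0.30 and -0.45 in the 3 comparisons with treated TMX-null liver (right), and -0.02 and -0.04 in the others (left). The 3 comparisons on the right share the same treated TMX-null array and are not separate observations.

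Treated over untreated TMX-null liver gives the response to LPS/GalN in the absence of TMX, and the untreated wild-type channel drops out of it if the same RNA was used on both arrays. Of 37 proteasome genes, 30 lay above 0, against 49.8% of all genes, and their median was 0.38, where the median over all genes was -0.0027. All 17 regulatory genes lay above 0, from 0.30 (Psmd6) to 1.20 (Psmd8), with a median of 0.52, and the 6 ATPases lay within 0.43 to 0.66. The 13 core genes ran from -0.81 (Psma8) to 0.47 (Psma7) with a median of 0.22, and 9 lay above 0. All 17 regulatory genes lay above the core median and 0 of 13 core genes above the regulatory median, although 4 core genes were higher than the lowest regulatory gene.

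Psmd8 was 2.30-fold higher in treated than in untreated TMX-null liver after centring. The next highest genes were Psmd14 (0.77), Psmd10 (0.71), Psmc5 (0.66), Psmc4 (0.65) and Psmd5 (0.59), all of the regulatory particle or its assembly. The lowest were Psma8 (-0.81), Psmd9 (-0.69), Psme4 (-0.16) and Psmf1 (-0.15). The catalytic genes stood at 0.30 for Psmb5, 0.22 for Psmb6 and -0.12 for Psmb7. At 2-fold, 1 of 37 was higher and 0 lower, 2.7% and 0%, beside 11.4% and 12.1% of all genes. At 1.5-fold, 7 (18.9%) were higher and 2 (5.41%) lower, beside 23.1% and 23.6%. More of these genes than of all genes lay above 0, and fewer lay past 1.5-fold. The median member was at percentile 68.8 of all genes, the median regulatory gene at 74.7 and the median core gene at 61.2.

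The spread of the treated TMX-null array was over 2 times that of the others, and bringing all arrays to the same SD made this difference smaller. The regulatory median was then 0.29 and the core median 0.11, with 12 of 17 regulatory genes above the core median, 2 of 13 core genes above the regulatory one and 10 above the lowest regulatory gene. Adrm1 and Sem1 are regulatory subunits whose names the rule does not take. Without that scaling, Adrm1, a ubiquitin receptor, stood at 0.44 and Sem1 at 0.06 for treated over untreated TMX-null liver. With both added to the unscaled values, 18 of 19 regulatory genes lay above the core median, while 9 core genes were higher than the lowest regulatory gene. With all arrays at the same SD and both added, these counts were 13 of 19 and 12.

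Markers of other cell types differed beside these values. For treated over untreated TMX-null liver all 8 measured hepatocyte markers of 10 lay below 0 (median -1.33, from Cyp2e1 at -3.52 to Apoa1 at -0.57), and 9 of 10 macrophage markers lay above 0 (median 0.64, from Clec4f at -0.47 to Marco at 3.00). In bulk RNA, fewer cells of a type and less RNA per cell cannot be told apart, and the part of cell composition in the proteasome values was not tested. The single measured monocyte marker of 5 stood at 4.73. Neutrophil markers (4 of 5 measured) had a median of 1.98 and ran from -2.31 to 4.63, and T and NK cell markers (4 of 5) a median of 1.25 and a range from -1.43 to 1.75. B cell markers (2 of 4) stood at 0.51 and 0.83, stellate markers (2 of 5) at 0.63 and 3.29. Endothelial markers (4 of 5) ran from -0.66 to 1.81 with 2 below 0, and cholangiocyte markers (4 of 5) from 0.18 to 1.88.

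Under LPS/GalN the genotypes were compared as treated TMX-null over treated wild-type liver. Here the particles lay on opposite sides of 0: the median was -0.15 for the core and 0.29 for the regulatory particle, a difference of -0.45, and 3 of 13 core genes but 16 of 17 regulatory genes lay above 0. Psmd13 at -0.04 was the exception among these 17, and Sem1, which the member rule does not take, stood lower at -0.24. Over all 37 genes 22 lay above 0, against 50.5% of all genes, with a median of 0.17. The highest were Psmd8 (0.91), Psmd10 (0.81), Psmd14 (0.59), Psmg2 (0.47), Psmc5 (0.44) and Psmc4 (0.42), and the lowest Psma8 (-1.29), Psmb7 (-0.41), Psmf1 (-0.41) and Psmb1 (-0.40). Psmb5 stood at 0.02 and Psmb6 at -0.15.

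At 2-fold, 0 of 37 were higher and 1 lower in treated TMX-null than in treated wild-type liver, beside 9.63% and 10.6% of all genes. The lower gene was Psma8, 2.45-fold after centring. At 1.5-fold, 3 (8.11%) were higher and 1 (2.7%) lower, beside 21% and 21.3%. The sign of the overall median depended on the scale of the arrays: with all arrays at the same SD it was -0.17 for all members, -0.02 for the regulatory and -0.33 for the core particle. The order of the particles stayed, with 17 of 17 regulatory genes above the core median and 0 of 13 core genes above the regulatory median under both scales. The particles still overlapped: 5 of 13 core genes lay above the lowest regulatory gene, and 6 with all arrays at the same SD. With Adrm1 and Sem1 added, 18 of 19 regulatory genes lay above the core median under both scales. Then 9 core genes lay above the lowest regulatory gene, and 11 with all arrays at the same SD. Hepatocyte markers were lower in treated TMX-null than in treated wild-type liver here too, all 8 of them, with a median of -0.93. Other markers differed as well. The single monocyte marker stood at 4.73, and all 4 cholangiocyte markers lay above 0 (median 0.83). Neutrophil markers ran from -1.61 to 2.85 (median 1.76) and T and NK cell markers from -0.81 to 1.70 (median 0.82). Endothelial markers ran from -0.44 to 1.58, and stellate markers stood at 1.03 and 2.35. B cell markers stood at 0.34 and 1.02, and 7 of 10 macrophage markers lay above 0 (median 0.21). The part of cell composition was not tested.

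**Figure D3:**
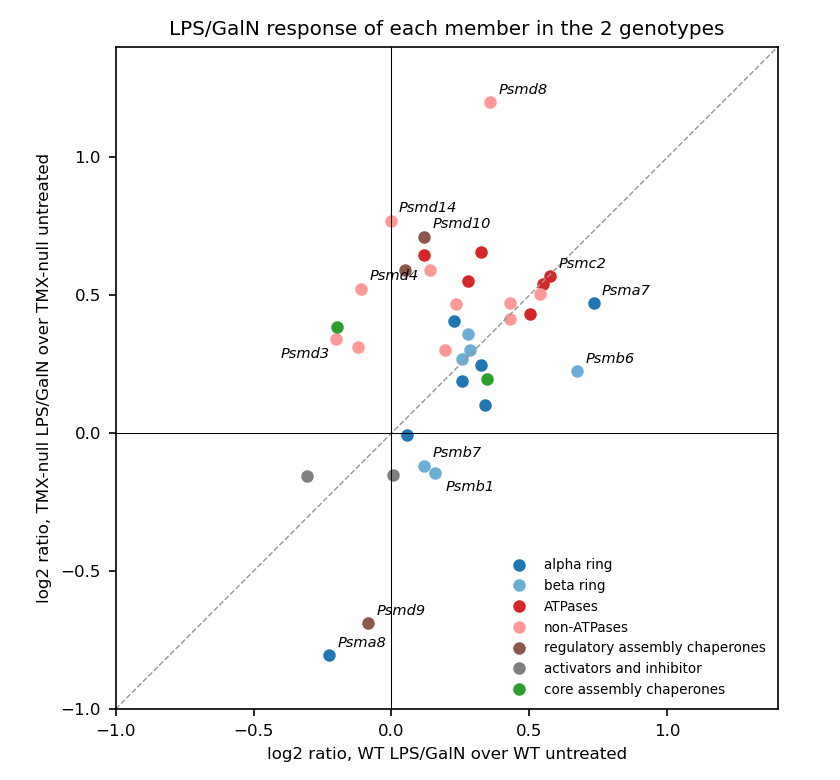
LPS/GalN response of each proteasome gene, as the log2 ratio of treated over untreated TMX-null liver (vertical axis) and of treated over untreated wild-type liver (horizontal axis); colours mark the role and the dashed line equal responses. Psmd8 (1.20 and 0.36) and Psmd14 (0.77 and -0.0026) lie far above the line, and Psmb6 (0.22 and 0.67) and Psma7 (0.47 and 0.73) below it.

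The difference of the LPS/GalN responses, TMX-null minus wild-type, had a median of 0.02 over the 37 genes. It was -0.08 for the core and 0.27 for the regulatory particle. Psmd8 (0.84), Psmd14 (0.77), Psmd4 (0.63), Psmd10 (0.59) and Psmg2 (0.58) were highest. Psmd9 (-0.60), Psma8 (-0.58) and Psmb6 (-0.45) were lowest. Untreated wild-type liver enters this difference once, and the SD of a single probe for it was 0.65. With all arrays at the same SD the medians were -0.19 and -0.03, and 11 of 17 regulatory genes lay above the core median.

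A further comparison, treated wild-type over untreated TMX-null liver, leaves out the untreated wild-type channel if its RNA was the same on both arrays, and mixes treatment with genotype. In it 34 of 37 genes lay above 0, against 50.4% of all genes, and the values lay close together: the ATPases ran from 0.21 to 0.28 with an SD of 0.03, against an SD of 0.46 over all genes. Core and regulatory medians were 0.30 and 0.23. The SD of a single probe for this comparison was 0.38. At 1.5-fold, 0 of 37 were higher or lower, beside 8.43% of all genes higher and 8.23% lower. The 3 genes below 0 were Psmd9 (-0.34), Psmd10 (-0.09) and Psmg2 (-0.08), all assembly chaperones. All 13 core and all 17 regulatory genes were higher in treated wild-type than in untreated TMX-null liver.

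The promoters of the 29 members found in RefSeq (build GRCm38.p6, windows of 300 bases from 250 before to 50 after the start) were searched on both strands for the core of the antioxidant response element, TGACNNNGC, which NRF1 and NRF2 can bind. It occurred in 6 of the 29 genes (20.7%), against 13.99% of the 27025 genes with a window: Psmb5, Psmb6, Psmc6, Psmd12, Psmd9 and Psme4. For treated over untreated TMX-null liver these 6 had a median of 0.26, and the 23 with a window and no match 0.47. The sets also differ in role. A match was held by 2 of 14 regulatory and 2 of 9 core genes with a window, and by the accessory genes Psmd9 (-0.69) and Psme4 (-0.16). Whether the match has a part in these medians was not tested. The CCAAT box, a site of NF-Y, was found in 34.5% of members and 41.1% of all genes, and TATAAA in 10.3% and 15.7%. The 2 highest members with a match in that comparison, Psmc6 (0.54) and Psmd12 (0.31), and the lowest member with a window, Psmd9 (-0.69), follow 5′ to 3′ with the match in capitals, to show where it lies. It starts at -227 in Psmc6 and -247 in Psmd12, both on the opposite strand, so that the capitals read as its reverse complement, and at -31 on the same strand in Psmd9. In the others it starts at -47 in Psmb5 and -9 in Psmb6, both on the same strand, and at -7 on the opposite strand in Psme4.
Psmc6 (chr14:45329574-45329873, plus strand): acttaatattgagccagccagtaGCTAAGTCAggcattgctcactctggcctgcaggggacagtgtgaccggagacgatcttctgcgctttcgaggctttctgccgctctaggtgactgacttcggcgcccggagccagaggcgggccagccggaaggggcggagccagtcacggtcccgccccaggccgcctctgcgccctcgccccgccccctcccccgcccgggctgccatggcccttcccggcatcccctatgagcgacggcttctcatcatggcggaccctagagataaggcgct
Psmd12 (chr11:107479278-107479577, plus strand): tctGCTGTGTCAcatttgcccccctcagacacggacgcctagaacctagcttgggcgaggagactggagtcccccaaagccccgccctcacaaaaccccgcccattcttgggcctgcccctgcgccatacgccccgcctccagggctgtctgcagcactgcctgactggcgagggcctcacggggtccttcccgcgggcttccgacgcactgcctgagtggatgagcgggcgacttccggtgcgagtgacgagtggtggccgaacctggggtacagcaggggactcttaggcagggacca
Psmd9 (chr5:123227940-123228239, plus strand): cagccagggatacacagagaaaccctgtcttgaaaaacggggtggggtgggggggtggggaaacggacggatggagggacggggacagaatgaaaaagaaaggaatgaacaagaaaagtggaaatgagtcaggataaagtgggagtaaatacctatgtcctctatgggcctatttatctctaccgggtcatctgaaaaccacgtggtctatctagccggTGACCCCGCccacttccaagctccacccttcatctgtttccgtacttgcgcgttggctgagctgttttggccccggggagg

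The matches differ in the 3 free letters. On the strand of the motif, Psmc6 reads TGACTTAGC, Psmd12 TGACACAGC, Psmd9 TGACCCCGC, Psmb5 TGACGTCGC, Psmb6 TGACGGAGC and Psme4 TGACGCTGC. A match is a description of the sequence and does not show that a factor binds there.

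Regulators of proteasome gene expression came from a list of 8 genes. Nfe2l1, which encodes NRF1, stood at -0.33 for treated over untreated TMX-null liver and -0.64 for treated over untreated wild-type liver, Ddi2, the protease that activates it, at -0.18 and -0.34, and Ngly1, which removes its sugars, at -0.39 and 0.02. Nfe2l2, the gene of NRF2, stood at 0.65 and 0.04. Its partners Maff (1.55 and 0.93) and Mafk (1.10 and -0.03) were at least 2-fold higher in treated than in untreated TMX-null liver, and Mafg stood at -0.01 and 0.13. Of these 8 genes 7 were measured on all arrays, and 2 of 7 were 2-fold higher and 0 lower in TMX-null liver, beside the 11.4% and 12.1% of all genes. The remaining gene, Nfe2l3, an NRF family member, had a value in treated wild-type liver only, at 2.29.

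Some genes that work with the proteasome gave larger values than most of its subunits. Zfand2a, a stress-inducible zinc finger protein that binds the proteasome, stood at 2.09 for treated over untreated TMX-null liver and -0.45 for treated over untreated wild-type liver. Usp14 (0.92 and 0.18) and Uchl5 (0.47 and 0.22) encode deubiquitinases that dock on the regulatory particle, and Sqstm1 (0.91 and 0.09) and Txnl1 (0.77 and 0.30) encode an autophagy receptor for ubiquitin and a thioredoxin of the regulatory particle. Of 12 measured shuttle and VCP genes 11 lay above 0 in the TMX-null comparison, against 49.8% of all genes, with a median of 0.40. At 2-fold 1 of the 12 was higher, beside 11.4% of all genes. In treated wild-type liver 6 of 12 lay above 0, against 50% of all genes, with a median of 0.02. Nploc4, a VCP cofactor, was the highest there at 1.06 (0.09 in the TMX-null comparison) and the 1 gene of the 12 at 2-fold, beside 2.81% of all genes. The ligase genes Ube3c (-0.18 and -0.30) and Ube3a (-0.46 and 0.27) and the deubiquitinase gene Usp5 (0.25 and 0.12) were not higher by 1.5-fold in either.

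A list of 8 further subunit, assembly and import genes, Adrm1 and Sem1 among them, had a median of 0.01 over 6 measured for treated over untreated TMX-null liver, from Ecpas (-0.29), which tethers the particles, to Akirin2 (0.53), which brings proteasomes into the nucleus. Pomp, the maturation factor of the core particle, stood at -0.04 there and at 0.25 in treated wild-type liver. The interferon-inducible genes comprise the replacement catalytic subunits Psmb8, Psmb9 and Psmb10 and the activator genes Psme1 and Psme2. They had a median of 0.10 in that comparison (4 of 5 measured), with 0.41 for Psmb8, 0.02 for Psmb9, 0.16 for Psmb10 and 0.04 for Psme1. For treated wild-type over untreated wild-type liver they stood at 0.64, -0.14, 0.09 and 0.40. Of 6 ubiquitin and activating enzyme genes 2 were measured, with a median of 0.36 for treated over untreated TMX-null liver.

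**Figure D4:**
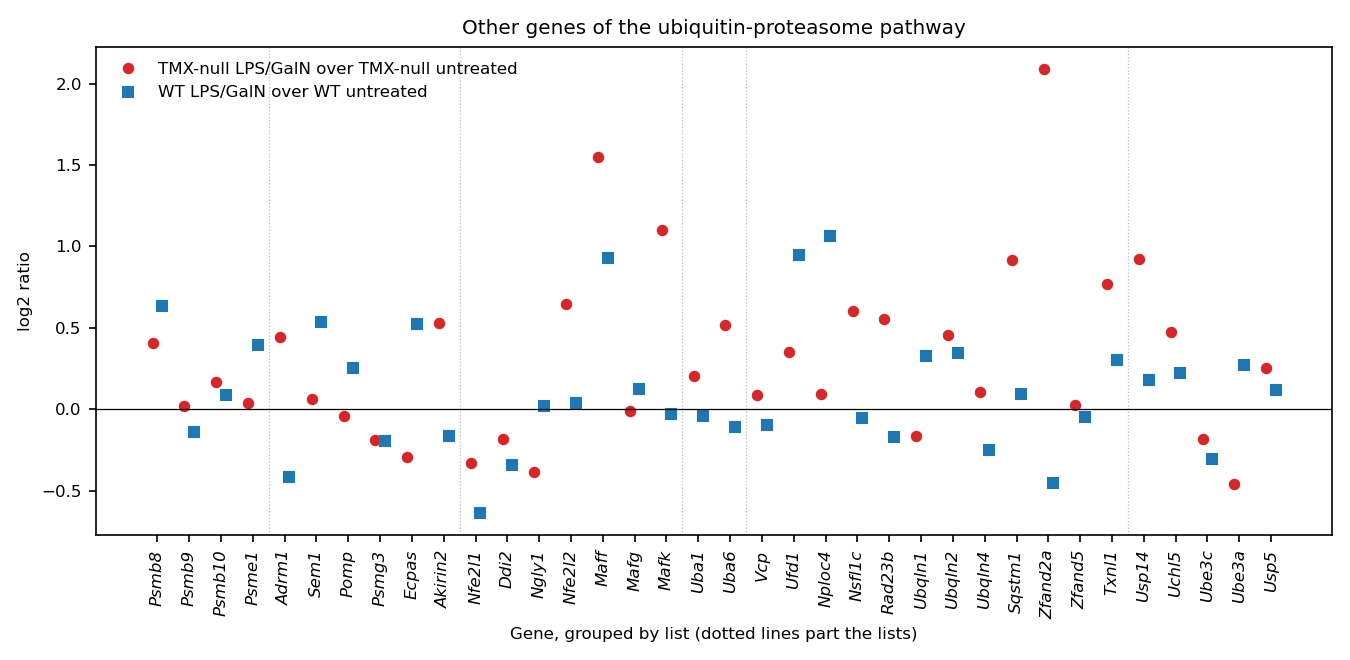
Log2 ratio (vertical axis) of other genes of the ubiquitin-proteasome pathway, grouped by list (horizontal axis), for treated over untreated TMX-null liver (circles) and treated over untreated wild-type liver (squares). Zfand2a at 2.09, Maff at 1.55 and Mafk at 1.10 are the genes at least 2-fold higher in the first of these, and Nploc4 at 1.06 is the one in the second; Nfe2l3, which had no value in TMX-null liver, is not drawn.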

How the data were processed

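Per the labels, each array compared the Cy3 sample with untreated wild-type liver RNA in Cy5, with dye coupling by a Toray protocol. The log ratios the authors deposited were taken as log2. No source used here gives their base, direction, background correction or normalization. The deposited log2 values had a median within 0.000114 of 0 on every array. A natural logarithm would raise every fold to the power 1.44. Of 23473 rows 16631 carry 1 gene symbol in the platform annotation; 3947 were renamed through unique RefSeq synonyms (GRCm38.p6) and 62 kept as given. Rows of a gene were averaged, and each array was centred on its median over 10184 genes measured on all 3 (-0.07, -0.04 and -0.03 for treated TMX-null, treated wild-type and untreated TMX-null). Genes were counted at 2-fold. Precision is limited by the number of arrays. Calculations used pandas 2.3.3 in Python 3.11.15 and were tested on simulated data. Any member could be named; the 6 highest and 4 lowest of each comparison were singled out, and of other genes those at 2-fold and the extremes of each list. Members and lists were chosen with earlier results of these data known. Alternatives were centring, genes taken, array scale, probe, symbols, log base, fold threshold and membership; without Psma8 and with Adrm1 and Sem1 were added after seeing the data.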

Additional observations from a re-analysis of the deposited data

Results flagged for a closer look

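In 9 of the 37 genes the response to LPS/GalN had opposite signs in the genotypes (24.3%), against 36.6% of all genes, and the difference was not tested. TMX-null liver was above 0 and wild-type liver below it in 5, with a difference (TMX-null response minus wild-type response, log2) of 0.77 for Psmd14, 0.63 for Psmd4, 0.58 for Psmg2, 0.54 for Psmd3 and 0.43 for Psmd12. The reverse held in 4, at -0.30 for Psmb1, -0.24 for Psmb7, -0.16 for Psmf1 and -0.0624 for Psma3. The SD of a single probe for this difference was 0.65, so Psmd14 alone exceeded it. Some signs rest on values near 0: Psmd14 (-0.0026) and Psmf1 (0.0047) in the wild-type response and Psma3 (-0.006) in the TMX-null response. Before centring Psmf1 stood at -0.04 in treated wild-type liver, so its responses then shared a sign. Of the first 5, 4 belong to the regulatory particle, and of the other 4, 3 belong to the core particle, where 17 and 13 of the 37 genes do.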

How the results depend on the processing

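With 1 array per group no array could be left out, and 145 alternative values of 20 results were computed. Of these, 115 stayed within 0.1 log2 or, for counts, 1.5 times, including values that the alternative could not change. Bringing all arrays to the same SD moved the members' median to 0.19 for treated TMX-null over untreated wild-type, 0.19 for treated over untreated TMX-null and, reversed, -0.17 for treated TMX-null over treated wild-type liver. It moved core minus regulatory to -0.21, -0.19 and -0.31 there. Counts at 2-fold became 0 higher and 0 lower in treated TMX-null liver against untreated wild-type, 0 higher against untreated TMX-null, 0 lower against treated wild-type, and 1 lower in untreated TMX-null liver. Read as natural logarithms, the medians were 0.44, 0.55 and, for treated wild-type liver, 0.34, and core minus regulatory -0.50, -0.43 and -0.64 in the comparisons of treated TMX-null liver. The 2-fold counts were then 8, 3 and 2 higher in these and 1 in treated wild-type liver, with 1 lower in treated against untreated TMX-null and 1 in untreated TMX-null liver. At 1.5-fold, 10, 7 and 3 were higher in these comparisons and 2 in treated wild-type liver, with 2 lower in treated against untreated TMX-null and 1 in untreated TMX-null liver. Structural subunits alone had a median of 0.41 in treated TMX-null over untreated wild-type liver. Core minus regulatory ran from -0.43 to -0.19 for treated over untreated TMX-null and from -0.64 to -0.31 for treated TMX-null over treated wild-type liver. Centring, genes taken, probe and symbols could not move it, as each of these subunits has a single probe with a value on every array. The log base only multiplies it. Its sign could change only with array scale or membership, and it stayed negative under those run. No paired analysis was possible because each group has 1 array. Without signal values, dim genes cannot be set apart.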
